A study of Danio rerio with 14 samples.

Results

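The Ror and Rev-erb nuclear receptors described are rorab, rorcb and nr1d2b, 3 of the 8793 genes that the platform annotation names. They were read through every probe set whose only gene symbol is 1 of these 3, which gave 4 of 15617 probe sets. 2 of them read nr1d2b and are called the brighter and the dimmer one by their mean signal, and rorab and rorcb have 1 each. No build was named with the array values, so no position is given.

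Ror and Rev-erb proteins bind the same short DNA element, the ROR element, in vertebrates. Ror proteins activate transcription there, while Rev-erb proteins recruit corepressors and silence the same genes. In mammals this contest shapes the daily wave of Bmal1, whose protein with Clock drives the E-box genes, Rev-erb among them, and so closes a second loop of the clock. Rev-erb proteins bind haem and Ror proteins bind sterols. The zebrafish gene nr1d2b encodes a Rev-erb beta, rorab a Ror alpha and rorcb a Ror gamma, and the fish genome carries further genes of both families. The zebrafish pineal gland holds photoreceptor cells with their own clock, which sets the nightly production of melatonin and is reset by light.

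The arrays measured RNA of pineal glands from adult zebrafish of both sexes, aged 3 to 6 months, of the line Tg(aanat2:EGFP)Y8, in which the aanat2 promoter drives green fluorescent protein in the gland and so guided its dissection. All fish had been raised under 12 h of light and 12 h of darkness at 28 °C, and all carried the transgene. During the cycle of collection they stayed in that light cycle (LD, 7 arrays) or were kept in constant darkness (DD, 7 arrays). Glands were taken every 4 h, at zeitgeber times (ZT, hours after lights on) 2, 6, 10, 14, 18 and 22, and each array held 12 pooled glands. A further collection per condition, ZT2b, is not explained by the labels and was used as ZT2. Most hours had just 1 pool per condition, so a p-value here weighs the scatter of pools about a fitted curve or contrast. The number of arrays limits the precision.

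Of the 7 pineal photoreceptor markers on the array 6 passed the filter on dim probe sets, and exorh, the pineal opsin, aanat2 and tph1a, enzymes of melatonin synthesis, had mean signals of 11723, 6705 and 5034. The DD array of ZT10 stood apart: its mean correlation with the other DD arrays was 0.938, against 0.956 to 0.965 for every other array with its own condition. Its added poly-A control RNA read 1474, against 88.4 to 225 on the others, and its 3' to 5' ratio of GAPDH was 16.7, against 5.09 to 12.9. Red cell markers summed to 18297 there, the highest of the arrays, and over the LD and DD arrays to 7154 to 12146 and 9184 to 18297. Calls that rest on this array are given with and without it.

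Signals are MAS5 intensities. They were tested as log2(signal + 14.9) with limma over the 9299 probe sets whose mean signal exceeded 29.179, with Benjamini-Hochberg adjustment and a threshold of 0.05. All 4 receptor probe sets passed this filter, the dimmer nr1d2b one narrowly, at the 41.7th percentile of mean signals. The size of a rhythm is the distance from trough to peak of a fitted 24-h wave on the log2 scale. It cannot be below 0. In bulk tissue, fewer cells of a type and less RNA per cell cannot be told apart.

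Transcripts of nr1d2b, the repressor, followed a daily course in LD and DD, high around dawn and low soon after dusk. In LD the brighter probe set read 1711 and 1661 at ZT2 and ZT2b, 992.5 at ZT6, 196.7 at ZT10, 59.6 at ZT14, 345.0 at ZT18 and 1031 at ZT22. In DD it read 1270 and 1128 at ZT2 and ZT2b, 1166 at ZT6, 420.1 at ZT10, 142.2 at ZT14, 285.9 at ZT18 and 719.3 at ZT22. Both conditions were highest at ZT2 and lowest at ZT14. The highest reading was 28.7 times the lowest in LD and 8.93 times the lowest in DD.

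The rhythm of nr1d2b had a size of 3.46 ± 0.30 (SE, 14 arrays) over both conditions, with its peak at ZT2.13 ± 0.376 h (limma adjusted p = 1.52e-05). In LD the size was 4.18 ± 0.32 and the peak ZT1.57 ± 0.328 h (adjusted p = 2.50e-05). In DD the size was 2.86 ± 0.32 and the peak ZT2.95 ± 0.478 h (adjusted p = 0.00224). By this probe set nr1d2b was thus rhythmic in the light cycle and without it. Without the DD array of ZT10 the DD size was 2.91 with a peak at ZT2.72 (adjusted p = 0.00431). The wave was 1.32 ± 0.451 smaller in DD and 1.38 ± 0.580 h later, and the joint test of this difference did not pass (unadjusted p = 0.00596, adjusted p = 0.571). The 2 repeat collections at ZT2 differed by 0.04 in LD and 0.17 in DD on the log2 scale. Against that spread, ZT22 and ZT6 in LD (0.05 apart) and ZT2 and ZT6 in DD (0.04 apart) were not told apart. Every other pair of neighbours in the order of levels stood further apart. This spread was measured at ZT2 alone and is a rough guide for the other hours.

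The widest gaps between LD and DD for nr1d2b lay at ZT10 and ZT14, on the falling side of the wave and at its lowest reading. Each rests on a single array per condition. At ZT10 the DD reading was 2.14 times that of LD, and at ZT14 it was 2.39 times. The ZT10 value comes from the DD array that stood apart. At ZT2, ZT2b and ZT22 the LD reading was the higher one, by 1.35, 1.47 and 1.43 times. Averaged over all hours, LD minus DD was -0.09 ± 0.21 on the log2 scale (adjusted p = 0.799), with -0.07 ± 0.28 by day (adjusted p = 0.895) and -0.10 ± 0.33 by night (adjusted p = 0.898). A p that misses the threshold does not show that the averages were equal.

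**Figure D1:**
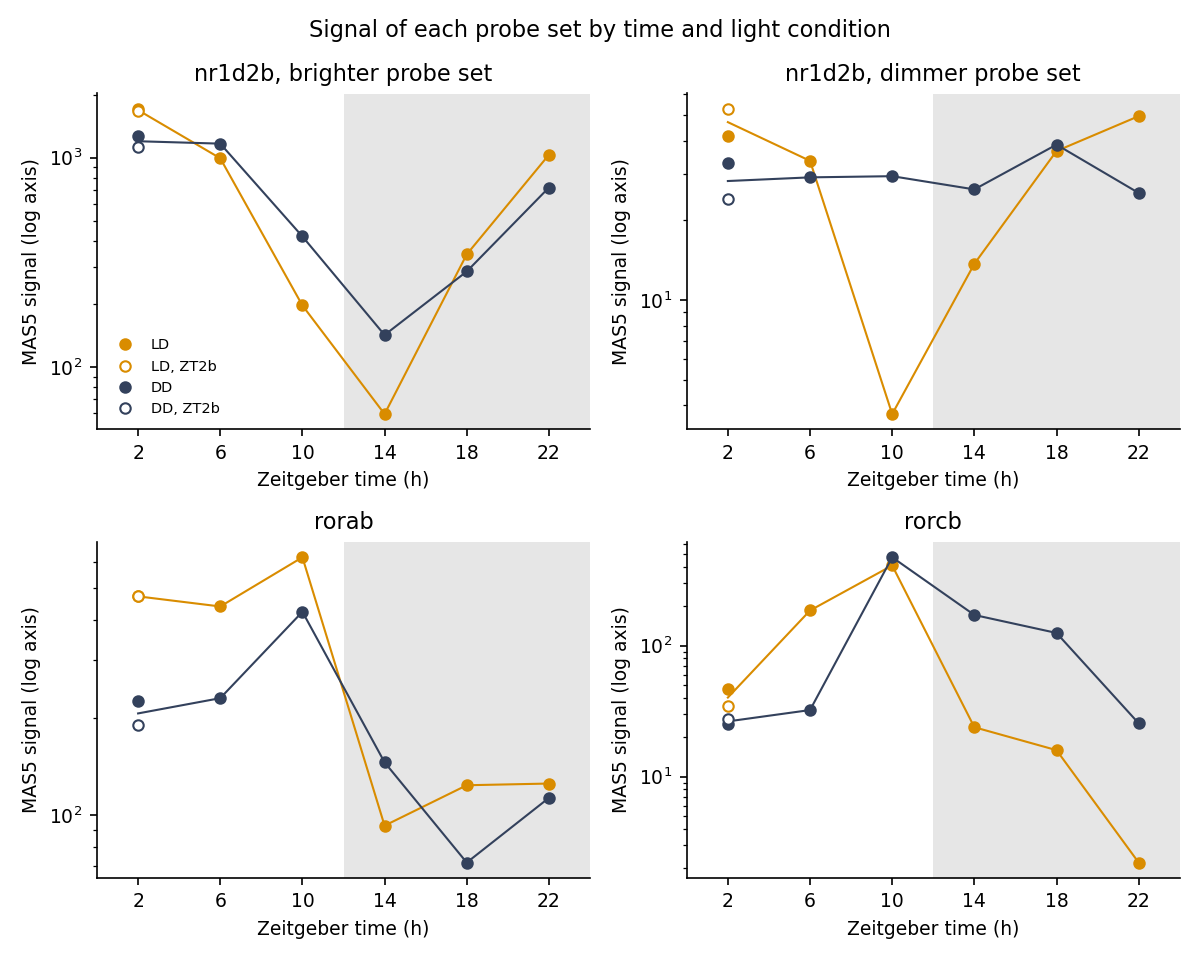
MAS5 signal (log axis) of each of the 4 probe sets against zeitgeber time in hours, with 1 point per array, LD in orange and DD in dark blue; open points are the ZT2b collection, lines join the readings (the geometric mean at ZT2), and grey marks the hours of darkness in LD. The brighter nr1d2b probe set was lowest at ZT14 in both conditions, rorab was highest at ZT10, and rorcb was highest at ZT10 with its lower readings earlier in DD and later in LD.

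The dimmer nr1d2b probe set showed a different picture. In LD it read 41.9 and 52.9 at ZT2 and ZT2b, 33.6 at ZT6, 3.7 at ZT10, 13.7 at ZT14, 36.6 at ZT18 and 49.6 at ZT22. In DD its 7 readings lay between 24.0 and 38.7, with no time apart from its neighbours by more than the 0.30 that separated the repeat collections. It was rhythmic in LD, with a size of 1.68 ± 0.32 and a peak at ZT23.3 ± 0.741 h (limma adjusted p = 0.0174). It did not pass in DD (size 0.12 ± 0.32, adjusted p = 0.977) or over both conditions (0.83 ± 0.30, adjusted p = 0.259). The correlation of the 2 probe sets was 0.623 over the 14 arrays, 0.797 over the 7 of LD and -0.145 over the 7 of DD. So the probe sets disagree on DD, and the files do not say which stretch of the transcript each one reads. The dimmer one had a mean signal of 31.3, against 794.9 for the brighter one. Its DD readings lay near 29.179, the mean signal asked of a tested probe set. Its LD readings at ZT10 and ZT14 were below the 14.9 added before the log. Whether its low signal bears on the disagreement was not tested. Without the LD array of ZT10 or that of ZT14 the call of the dimmer probe set in LD was lost (adjusted p = 0.136 and 0.0646), as it was without that of ZT2b (0.0659).

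rorab, an activator, ran as a daytime plateau in LD. Its LD readings were 471.9 and 471.5 at ZT2 and ZT2b, 439.1 at ZT6, 622.2 at ZT10, 93.0 at ZT14, 123.8 at ZT18 and 125.3 at ZT22. Every LD day reading was above every LD night reading, and between ZT10 and ZT14, across lights off, the signal went from the highest to the lowest of the LD readings. In DD the readings were 224.2 and 189.1 at ZT2 and ZT2b, 229.4 at ZT6, 422.9 at ZT10, 145.6 at ZT14, 71.6 at ZT18 and 113.2 at ZT22. The DD day and night hours did not overlap either, and of the day hours ZT10 came nearest to its LD level. By the spread of the repeat collections (0.23 on the log2 scale at most), ZT2 and ZT6 were not told apart in either condition, nor were ZT18 and ZT22 in LD.

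The rhythm of rorab was 2.23 ± 0.35 in size over both conditions, with its peak at ZT6.52 ± 0.544 h (limma adjusted p = 0.00256). In LD it was 2.65 ± 0.46 with a peak at ZT5.86 ± 0.620 h (adjusted p = 0.00906). In DD it was 1.91 ± 0.47 with a peak at ZT7.45 ± 0.833 h and did not pass (adjusted p = 0.192). The difference of the rhythms did not pass either (adjusted p = 0.779), so rorab is not shown to be less rhythmic in DD. Without the DD array of ZT10 the DD size was 1.47 (adjusted p = 0.433) and the size over both conditions 2.07 (adjusted p = 0.00306).

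By day rorab was higher in LD than in DD. The LD reading was 2.10 and 2.49 times the DD reading at ZT2 and ZT2b, 1.91 times at ZT6 and 1.47 times at ZT10. The day contrast was 0.93 ± 0.20 on the log2 scale (limma adjusted p = 0.0161, higher in 4 of 4 pairs), and 1.06 without the DD array of ZT10 (adjusted p = 0.0155). By night the LD to DD ratios were 0.639, 1.73 and 1.11 at ZT14, ZT18 and ZT22, and the contrast was 0.08 ± 0.23 (adjusted p = 0.885). The day and night contrasts differed by 0.85 ± 0.30, which did not pass (unadjusted p = 0.0157, adjusted p = 0.786), so the LD excess is not shown to be limited to the day. The day call was lost without the ZT2b array of DD (adjusted p = 0.0627) or of LD (0.0543).

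Over all hours rorab was 0.56 ± 0.19 higher in LD (limma adjusted p = 0.0456, higher in 6 of 7 pairs). That call lay at the threshold: it was lost without any 1 of 12 arrays (adjusted p from 0.0525 to 0.108), all but the ZT14 arrays of LD and DD, and with no replicate block (0.376). The block is the time of collection, so outside ZT2 an array left out takes its partner of that hour out of the contrast too. The omissions are therefore not 12 separate checks. The LD excess over all hours is given as a value, not as a firm difference.

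rorcb, the other activator, stood high around the end of the day, and in DD into the night hours. In LD it read 46.8 and 34.4 at ZT2 and ZT2b, 185.6 at ZT6, 409.8 at ZT10, 23.8 at ZT14, 15.9 at ZT18 and 2.2 at ZT22. In DD it read 25.2 and 27.6 at ZT2 and ZT2b, 32.2 at ZT6, 473.5 at ZT10, 171.5 at ZT14, 125.0 at ZT18 and 25.5 at ZT22. Both conditions were highest at ZT10, at about the same reading. The shoulders stood on opposite sides: ZT6 was the next highest time in LD, ZT14 and then ZT18 in DD. The repeat collections differed by at most 0.32 on the log2 scale. Against that spread ZT6 and ZT2, and ZT2 and ZT22, were not told apart in DD, while all other neighbours in the order of levels stood further apart. These repeats read 25.2 to 46.8, and the spread at higher readings was not measured. The LD reading at ZT22 is below the 14.9 added before the log, and differences on the log2 scale understate the folds between such low readings.

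The rhythm of rorcb was 3.19 ± 0.66 in size over both conditions, with its peak at ZT10.1 ± 0.752 h (limma adjusted p = 0.0203). In LD the size was 4.25 ± 0.66 and the peak ZT8.33 ± 0.523 h (adjusted p = 0.00505). In DD the size was 3.25 ± 0.59 and the peak ZT12.6 ± 0.764 h (adjusted p = 0.0459). The fitted peak was thus 4.27 ± 0.926 h later in DD, while the size differed by little more than its SE of 0.886. The joint test of the difference gave an unadjusted p of 0.00140 and did not pass after adjustment (adjusted p = 0.550). The DD array of ZT10 carries the highest DD reading. Without it the DD size was 2.38 with a peak at ZT14.0 (adjusted p = 0.133), and the rhythm over both conditions was 2.82 (adjusted p = 0.0764). The latter call was also lost without the LD array of ZT10 (0.0979) or of ZT22 (0.0686). The DD call was lost without any 1 of 11 arrays (adjusted p from 0.0504 to 0.133), all but the DD array of ZT6 and the LD arrays of ZT10 and ZT14. The LD call was kept without each array in turn (adjusted p from 0.00121 to 0.0452 over all alternatives). Arrays of the other condition do not enter the size or peak of a condition. Leaving them out changes only the spread shared by all arrays and the adjustment.

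By night, in darkness in both conditions, rorcb was lower in fish that had been in light during the day. The 3 LD readings, 23.8, 15.9 and 2.2 at ZT14, ZT18 and ZT22, were each below the DD reading of the same hour, 171.5, 125.0 and 25.5. These LD readings lie below 29.179, the mean signal asked of a tested probe set, so no fold is given for them. The night contrast, LD minus DD, was -1.90 ± 0.35 on the log2 scale (limma adjusted p = 0.0234, lower in 3 of 3 pairs). By day the LD reading was the higher one at ZT2, ZT2b and ZT6 and the lower one at ZT10 (0.865 times DD), and the contrast was 0.68 ± 0.31 (adjusted p = 0.172). Day minus night, the contrasts differed by 2.58 ± 0.47, with an unadjusted p of 1.25e-04 that did not pass after adjustment (adjusted p = 0.176). Over all hours the opposite differences gave -0.42 ± 0.41 (adjusted p = 0.494). With 3 arrays a side at night, the night call was lost without any 1 of the 6 night arrays (adjusted p from 0.0987 to 0.156), and with no replicate block (0.268). The block is the time of collection, so an array left out takes its partner of that hour out of the contrast too. The night arrays thus give 3 checks, not 6. The night call was kept without the DD array of ZT10 (0.0116). That array does not enter the night contrast, so leaving it out changes only the estimated spread and the adjustment.

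**Figure D2:**
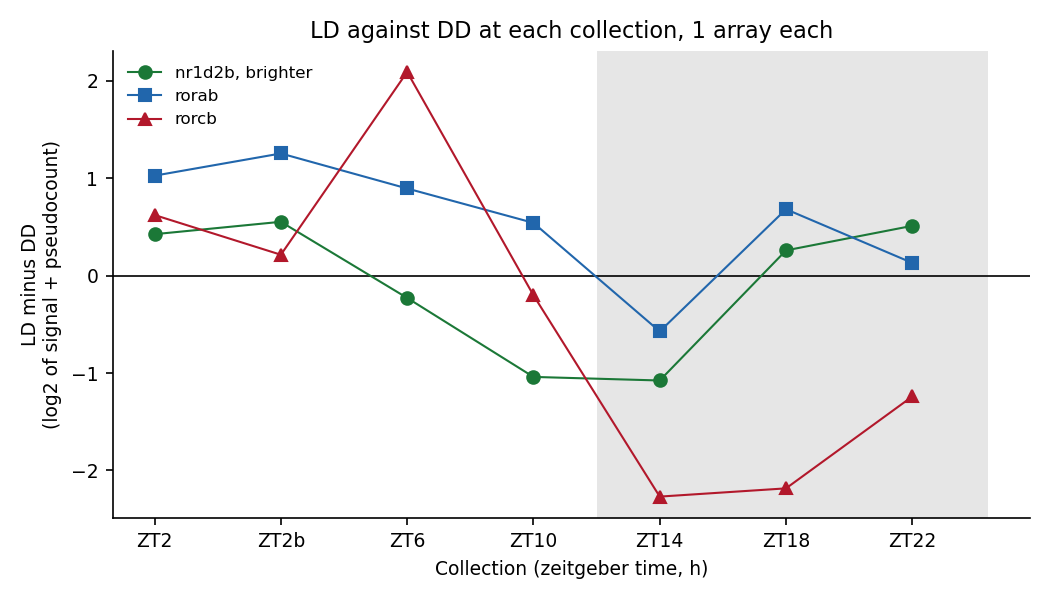
Difference LD minus DD on the log2(signal + 14.9) scale for rorab, rorcb and the brighter nr1d2b probe set at each of the 7 collections, 1 array per condition at each, with grey for the collections made in darkness in both conditions. rorab lies above 0 at all 4 day collections, rorcb is above 0 at ZT6 and below 0 at ZT14, ZT18 and ZT22, and nr1d2b is below 0 at ZT6, ZT10 and ZT14.

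Some markers of other cells also differed between the conditions. Of all tested probe sets 20.6% differed by light condition over all hours, 932 higher and 983 lower in LD. Glia and myelin markers (6 on the array) summed to 2865 to 4247 in LD and 4409 to 5720 in DD, with s100b and glula lower in LD. Of 5 red cell markers 4 were lower in LD, hbba2 by 3.25 ± 0.26 on the log2 scale (limma adjusted p = 4.67e-05). Of 7 tested leukocyte markers 2 were lower in LD, ptprc and cd74a. At night the leukocyte sums were 3493 to 4529 in LD and 5255 to 7698 in DD, and the pineal sums 38444 to 41855 in LD and 29568 to 34277 in DD. By day the pineal sums overlapped, at 22007 to 28058 in LD and 23092 to 26865 in DD. The pineal sums include aanat2, itself rhythmic over both conditions (2.33 ± 0.49, peak ZT19.1, limma adjusted p = 0.0240), so they vary with the hour. exorh, also in these sums, was 0.15 ± 0.08 higher in LD over all hours and did not pass (adjusted p = 0.231). Habenula and neuron markers summed by day to 2914 to 3460 in LD and 2552 to 3484 in DD, and by night to 3589 to 4100 in LD and 2990 to 3134 in DD. Of 4 tested, kctd12.1 was lower in LD over all hours (-1.36 ± 0.14, limma adjusted p = 1.45e-04), and snap25a and snap25b were higher. Of the pineal markers tested, otx5 was higher in LD over all hours, by 1.09 ± 0.13 (adjusted p = 3.47e-04). Skin and connective tissue markers overlapped by day and by night (2677 to 4749 in LD, 2355 to 5313 in DD over all hours). The dim muscle markers overlapped by day (83.6 to 174.2 in LD, 103.0 to 163.5 in DD) and not by night (96.2 to 148.0 and 156.4 to 331.7). None of the markers was listed at 0. Their part in the LD against DD values of rorab and rorcb was not tested.

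Set against all probe sets, a rhythm in LD was the common trait of the receptor probe sets, 2 of which read nr1d2b. Over both conditions 3 of the 4 probe sets passed the test, where 4.86% of all those tested did. In LD all 4 passed against 4.1%, and in DD 2 of 4, nr1d2b by its brighter probe set and rorcb, against 0.645%. The rorcb calls over both conditions and in DD were lost without the DD array of ZT10 (limma adjusted p = 0.0764 and 0.133). The DD call of rorcb was kept in 6 of 24 alternatives. The median size over all tested probe sets was 0.34 over both conditions, 0.44 in LD and 0.43 in DD. The brighter nr1d2b probe set, rorab and rorcb lay above the 99th percentile of sizes in LD (2.19) and in DD (1.64). The DD rhythm of rorab did not pass (limma adjusted p = 0.192), and without the DD array of ZT10 its size was 1.47.

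The light condition told less. Over all hours 1 of 4 receptor probe sets passed, against 20.6% of all. By day 1 of 4 passed, against 9.23%, and by night 1 of 4, against 2.93%. The difference of the rhythms between LD and DD passed for 0 of 4, as for 0% of all, and 662 of 9299 probe sets had an unadjusted p under 0.05 in limma. That of the day and night contrasts likewise passed for 0 of 4 and 0% of all, with 527 probe sets at an unadjusted p under 0.05. In these 2 comparisons no probe set of the array passed after adjustment.

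**Figure D3:**
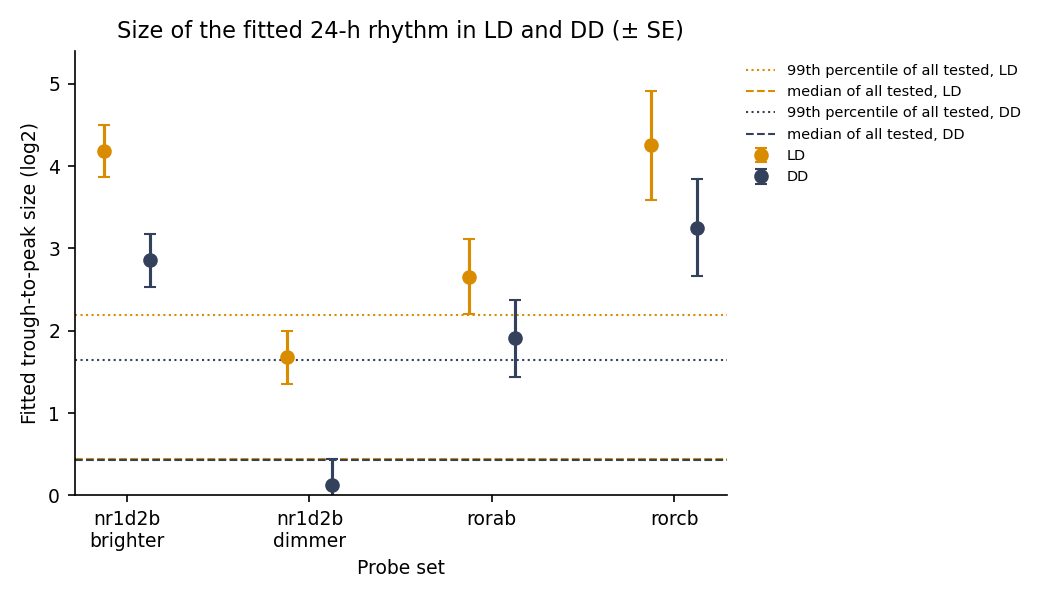
Fitted trough-to-peak size of the 24-h rhythm on the log2 scale, with its SE as bars, for the 4 probe sets in LD and DD; dashed lines give the median of the 9299 tested probe sets (0.44 in LD, 0.43 in DD, so they nearly coincide) and dotted lines the 99th percentile (2.19 and 1.64). The dimmer nr1d2b probe set in DD, at 0.12, lies below the median, and the other probe sets lie above the 99th percentile except the dimmer one in LD. The rorab rhythm in DD did not pass the test (limma adjusted p = 0.192).

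The fitted peaks came in the same order in LD and DD, although the highest single reading of both rorab and rorcb was at ZT10 in both conditions and the DD rhythm of rorab did not pass (adjusted p = 0.192). Over both conditions nr1d2b, read by its brighter probe set, was first. rorab followed 4.39 ± 0.661 h later and rorcb another 3.62 ± 0.928 h later (SE taken as if the fits were independent). In LD the steps were 4.29 ± 0.702 and 2.47 ± 0.812 h, and in DD 4.50 ± 0.960 and 5.15 ± 1.13 h. By these fits the repressor peaked near dawn and the activators later, rorab by day and rorcb at ZT8.33 in LD and ZT12.6 in DD. Across the 14 arrays nr1d2b and rorab correlated at 0.393, nr1d2b and rorcb at -0.344 and rorab and rorcb at 0.494. Within a condition the last pair reached 0.763 over the 7 LD arrays and 0.278 over the 7 DD arrays. These readings share their arrays and are given as a description.

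The fitted peaks of the brighter nr1d2b probe set, rorab and rorcb, 3 in all, were later in DD than in LD. The delays were 1.38 ± 0.580, 1.59 ± 1.04 and 4.27 ± 0.926 h. The difference of the rhythms passed for none of the 3 (limma adjusted p = 0.571, 0.779 and 0.550). A later fit in DD was not particular to them. The 452 probe sets rhythmic over both conditions had a median peak 0.689 h later in DD. For the dimmer nr1d2b probe set, with a DD size of 0.12, the DD peak could not be placed (DD minus LD -6.33 ± 10.1 h).

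Genes that carry ROR elements in mammals were the first group to set beside the receptors. Of 18 listed genes 10 were on the array and 7 were tested. 5 of these were rhythmic over both conditions, where 4.86% of all tested probe sets were. The median size over the 7 was 2.16, against 0.34 over all tested. bmal1b, a partner of Clock, had a size of 2.16 ± 0.31 and a peak at ZT11.8, and bmal1a 2.54 ± 0.41 and ZT11.0. Both peaked near dusk, where the fits over both conditions put rorcb at ZT10.1 and nr1d2b at ZT2.13. In LD they peaked at ZT11.1 (bmal1b) and ZT10.3 (bmal1a), and rorcb at ZT8.33. nfil3-5, a D-box repressor, had the widest wave of the list at 6.15 ± 0.53 with a peak at ZT12.1. nfil3-6 (2.37 ± 0.39, ZT4.97) and cry1a, a repressor of Clock and Bmal (1.90 ± 0.43, ZT5.23), peaked in the day, near rorab. cry1b (1.16 ± 0.37, adjusted p = 0.190) and clocka (0.30 ± 0.33, adjusted p = 0.841) did not pass. In LD 5 of the 7 passed, against 4.1% of all tested probe sets, and in DD 1, nfil3-5, against 0.645%. LD against DD over all hours, 1 of 7 was higher, cry1a (1.03, adjusted p = 0.0295), and 0 were lower. Of all tested probe sets 20.6% differed.

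Regulators that act through E-boxes and D-boxes, the elements that drive Rev-erb genes in mammals, came next. Of 25 listed genes 16 were on the array and 11 were tested. 10 of these passed over both conditions, 10 in LD and 4 in DD, where 4.86%, 4.1% and 0.645% of all tested probe sets did. The median size over both conditions was 2.09, against 0.34 over all tested. ciarta, bhlhe41 and tefa peaked within about the same hours as nr1d2b, at ZT1.12, ZT0.667 and ZT1.55. bhlhe40, a repressor of E-box genes, peaked at ZT3.95, cry4 at ZT12.4 and fbxl3a, which marks Cry proteins for breakdown, at ZT12.7. per2, a repressor induced by light, had a size of 3.09 ± 0.79 over both conditions and missed the threshold (adjusted p = 0.0702). It passed in LD (5.29 ± 0.86, adjusted p = 0.00663) and was 2.36 ± 0.34 higher in LD by day (adjusted p = 0.00331). LD against DD over all hours, 4 of 11 were higher (cry2, tefa, csnk1e and fbxl3a) and 0 lower, where 20.6% of all tested probe sets differed.

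**Figure D4:**
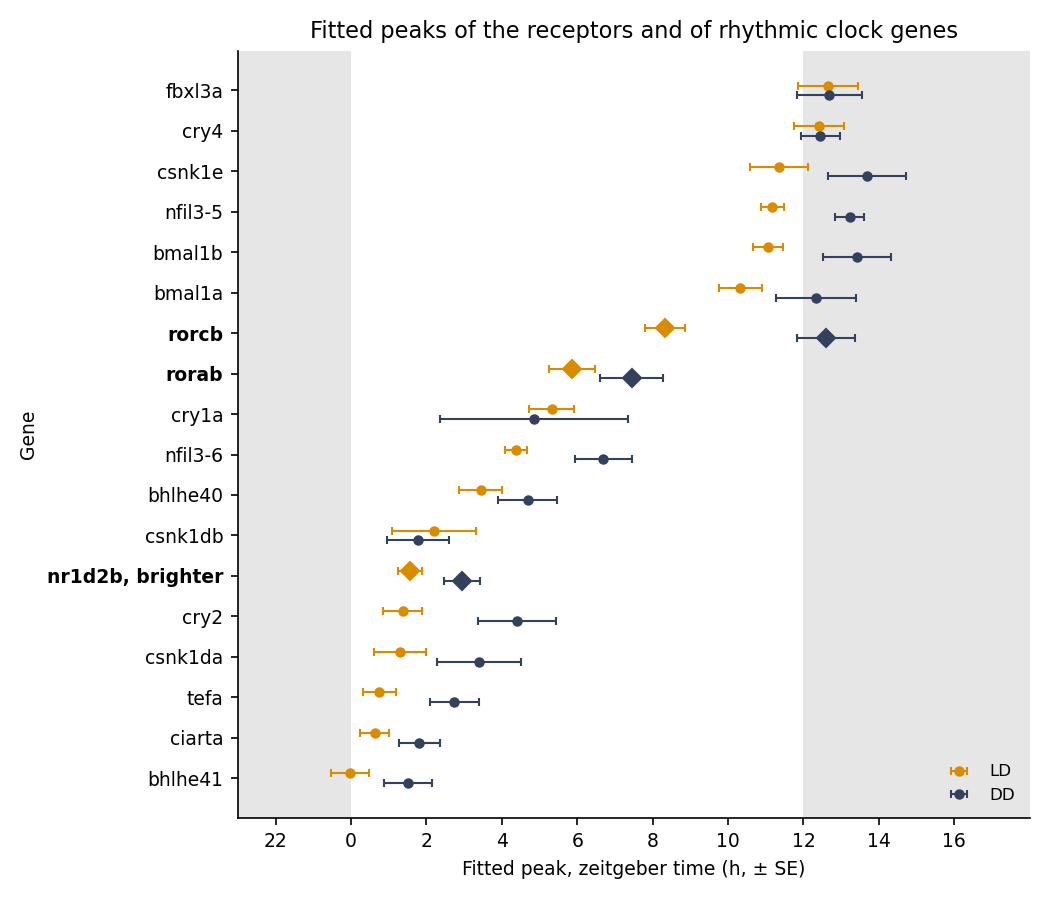
Fitted peak of the 24-h rhythm in zeitgeber hours, with its SE as bars, in LD (orange) and DD (dark blue) for nr1d2b, rorab and rorcb (diamonds, bold) and for the 15 clock genes of both lists that were rhythmic over both conditions; grey marks the dark hours of LD. nr1d2b, read by its brighter probe set, stands among the dawn genes and rorab in the day. rorcb stands at ZT8.33 in LD and ZT12.6 in DD, a difference of rhythm that did not pass the test (limma adjusted p = 0.550).

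Most partners of the receptor proteins did not pass the rhythm test, which 4.86% of all tested probe sets passed. A missed threshold does not show that they were flat. Of 24 corepressors and coactivators 11 were on the array and 9 were tested, with a median size of 0.30, below that of all probe sets. 1 passed over both conditions, in LD and in DD: nrip1b, whose mammalian relative is a corepressor of nuclear receptors, with a size of 1.42 ± 0.21 and a peak at ZT10.7 (limma adjusted p = 0.00150). hdac3, the enzyme that Rev-erb recruits through its corepressor in mammals, had a size of 0.30 ± 0.25 (adjusted p = 0.735), and hdac1 one of 0.25 ± 0.20 (adjusted p = 0.719). LD against DD over all hours, hdac3 was higher and sin3aa lower, where 20.6% of all tested probe sets differed. hdac3 was chosen after its values were seen.

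Genes for the turnover of the receptor proteins and for their ligands were read next. Of 8 tested turnover genes 1 was rhythmic over both conditions, fbxl3a, with a size of 1.11 ± 0.15; it also stands in the list of E-box and D-box regulators. Over all hours 3 were higher in LD (fbxl3a, huwe1 and mycbp2) and 0 lower. Haem synthesis and breakdown, which supplies the Rev-erb ligand, had 0 of 7 tested genes rhythmic, with a median size of 0.36. Over all hours alas1, its rate-limiting enzyme outside red cells, was 0.69 higher in LD (limma adjusted p = 0.00649), urod was 0.47 higher (0.0187) and alas2, the red cell form, was 0.69 lower (-0.69 for LD minus DD, 0.0120), beside the other red cell markers. Sterol genes had 0 of 4 tested genes rhythmic and 0 that differed by light condition, with a median size of 0.48. Over these 3 lists, 1 of 19 tested genes was rhythmic, where 4.86% of all probe sets were, and 6 of 19 differed by light condition over all hours, where 20.6% did.

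Among 17 other nuclear receptors tested, of 38 on the array, the median size was 0.37. Over both conditions 1 was rhythmic, near the 4.86% of all tested probe sets that were. It was thraa, a thyroid hormone receptor, at 1.25 ± 0.23 with a peak at ZT22.1 (limma adjusted p = 0.00929). nr2f6b passed in LD (adjusted p = 0.0106) and was 0.89 higher in LD over all hours (0.00344). esrrga was the other receptor higher in LD, and esr2a and nr4a1 were lower. That is 2 higher and 2 lower of 17, near the 20.6% of all tested probe sets that differed. Of the other Ror and Rev-erb copies, 1 of 8 listed was on the array: nr1d2a, whose mean signal lay below the filter, so that 0 were tested.

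The genes whose course over the 14 arrays was most like each receptor were ranked among 6113 genes by Pearson's r, as a description. For nr1d2b they were phyhd1 (0.937), aqp1a.1, a water channel (0.915), poldip2 (0.903), rhoub (0.903) and csnk1da, a kinase that marks Per proteins (0.902), and their own peaks lay between ZT1.28 and ZT3.07. The most opposite were ccng2 (-0.912), ndrg1b (-0.903) and znrf1 (-0.900), with peaks from ZT13.9 to ZT14.6. These peaks fall near the ZT14 collection, at which nr1d2b was lowest.

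For rorab the most alike were phyh, a peroxisomal enzyme of branched fatty acid breakdown (0.936), lrp1aa (0.925), pus7 (0.886), lratd2b (0.883) and prmt3 (0.880). Their fitted peaks lay between ZT5.83 and ZT7.18, but phyh, pus7 and prmt3 did not pass the rhythm test over both conditions (limma adjusted p = 0.0606, 0.0713 and 0.105). Opposite it stood ppp1r3c2b (-0.904), tbc1d14 (-0.868) and fkbp1b (-0.864), with fitted peaks from ZT17.6 to ZT17.9, of which tbc1d14 did not pass (adjusted p = 0.145). For rorcb the most alike was ell2, an elongation factor of RNA polymerase II (0.965), followed by tfg (0.857), helz (0.846), phf23a (0.839) and smarca4a (0.839). None of these 5 passed the rhythm test over both conditions (limma adjusted p from 0.0698 to 0.499). Their r, like those of the other receptors, include the DD array of ZT10, which stood apart and holds the highest rorcb reading. No r was computed without that array. The most opposite to rorcb were cxcl14, a chemokine (-0.857), si:ch211-152c2.3 (-0.855) and mcl1b (-0.838), with fitted peaks from ZT21.2 to ZT22.0, of which mcl1b did not pass (adjusted p = 0.0926).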

How the data were processed

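The authors deposited MAS5 signals, linear intensities with 1 value for every probe set and array, which GCOS and MAS5 produced, per the submitters' processing notes; versions are not given in the sources used here. Per the labels' protocols, the RNA was amplified by in vitro transcription in 2 rounds. Dates and batches are not given there, so LD against DD and a batch that split the same arrays cannot be told apart. Of 15617 probe sets, 115 controls and 1 with an empty cell were left out. Of the other probe sets 10795 had 1 symbol in the platform annotation, 135 several and 4572 none; 10711 were matched by Entrez ID, which changed 1 symbol. There were 0 columns of no sample.

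Signals were taken as log2(signal + 14.9), 14.9 being the 25th percentile of all values, with no further scaling. Fold changes on this scale understate those of dim genes. Probe sets with a mean above 29.179, the 40th percentile, were tested with limma 3.58.1 (lmFit, eBayes with trend) in R 4.3.3, after a test on simulated data. A rhythm was fitted as a cosine and a sine of 24 h, with light condition in the model. LD against DD was tested with the 6 times of collection as a block; the day contrast used ZT2, ZT2b, ZT6 and ZT10 and the night one ZT14, ZT18 and ZT22. The block comes from the labels, which give both conditions the same times. Peak errors follow from the fitted terms by the delta method. Alternatives were another pseudocount, scaling, filter, variance prior or model of time, 1 probe set per gene, and leaving out the ZT2b arrays or each array in turn.

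Members, gene lists and tests were chosen with earlier results of these data known. Genes of a list are read by their probe set of highest mean; those named are, of each list, at most 6 rhythmic over both conditions by smallest p and at most 3 others by highest mean, and for each receptor the 5 most alike and the 3 most opposite genes. Further genes of a list that differed by light condition, hdac3 among them, were named after their values were seen. Figures were drawn with matplotlib 3.10.9.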

Additional observations from a re-analysis of the deposited data

Results flagged for a closer look

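The DD reading of rorcb at ZT10, 473.5, lay far from the other 6 DD arrays, of which the next was 171.5 at ZT14. On the linear signals the gap was 0.674 of the whole DD range, above Dixon's 95% critical value for 7 samples. On the log2 scale of the tests these readings were 8.93 and 7.54, and the lowest was 5.33. There the gap was a smaller part of the range, below that critical value. Chance alone marks about 1 in 20 such groups, and readings at different hours of a day are not repeats of 1 value. The LD array of the same hour was also the highest of its condition for rorcb, at 409.8. The DD array of ZT10 was the one with the highest poly-A controls and GAPDH ratio, and whether these bear on the rorcb reading was not tested.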

How the results depend on the processing

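Of 994 values recomputed under an alternative, 850 kept their direction and their side of the threshold, or stayed within 1.5 times for counts of calls. The brighter nr1d2b probe set kept its call in all alternatives over both conditions, in LD and in DD (highest adjusted p 4.62e-04, 5.82e-04 and 0.0370), and rorab kept its call over both conditions and in LD (0.0172 and 0.0497). The cause was not tested for any value that moved, except that leaving out arrays leaves fewer samples.

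Without both ZT2b arrays the counts of calls were 260 over both conditions, 156 in LD, 13 in DD, 943 for LD against DD, 83 by day and 15 by night. In the same setting the adjusted p of rorcb was 0.0633 over both conditions, 0.193 in DD and 0.0624 by night, that of rorab 0.165 for LD against DD and 0.131 by day, and that of the dimmer nr1d2b probe set 0.0951 in LD. The F-test over the 6 times gave 140 calls over both conditions and a rorcb p of 0.0991. With no term for light condition there were 214 calls. With a robust variance prior the rorcb p was 0.0861 over both conditions and 0.0967 in DD, and 2 probe sets were called for the difference of the rhythms. The rorcb call in DD was also lost with a pseudocount of 1 (0.0737) or 4 times the main one (0.0732), quantile normalisation (0.0550), no filter (0.0601) and no trend in the prior (0.0621). The rorab call over all hours was lost with a pseudocount of 1 (0.0517), no filter (0.0625), no trend (0.0506) and 7 collections as blocks (0.0593). Night calls numbered 138 with no filter and 132 with 7 collections as blocks.

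The replicate block is the time of collection, which both conditions share. Without the block the rorab p for LD against DD was 0.376 and the rorcb p by night 0.268; the rorab call by day was kept (0.0289), and no other receptor call was lost.

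Leaving out each array in turn gave 282 to 571 calls over both conditions, 155 to 598 in LD, 14 to 103 in DD, 325 to 831 by day, 0 to 602 by night, and 0 to 1 for each of the 2 differences. The count by night was 0 without the ZT18 array of either condition, and limma with all arrays gave 1917 probe sets an unadjusted p under 0.05 there. The adjusted p ranged from 0.00282 to 0.0979 for rorcb over both conditions, 0.0160 to 0.133 in DD and 0.00818 to 0.156 by night. For rorab it ranged from 0.0122 to 0.0627 by day and 0.00814 to 0.108 over all hours, and for the dimmer nr1d2b probe set in LD from 0.0103 to 0.136.

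Values that missed the threshold and lay near 0 turned sign in some settings, at adjusted p of 0.340 or more. For the dimmer nr1d2b probe set these were 0.808 (pseudocount of 1) and 0.763 (no ZT2b) over all hours, 0.897 (larger pseudocount), 0.980 (median centring) and 0.975 (quantile) by day, 0.996 (pseudocount of 1) by night and 0.9997 (larger pseudocount) for day minus night. For the brighter one they were 0.995 (larger pseudocount), 0.998 (quantile) and 0.989 (no ZT2b) for day minus night. Over the arrays left out, the ranges were 0.915 to 0.996 (dimmer, DD rhythm, whose fitted peak moved), 0.419 to 0.977, 0.340 to 0.979, 0.779 to 0.974 and 0.878 to 0.9994 (dimmer, all hours, day, night and day minus night), 0.599 to 0.880, 0.584 to 0.978, 0.633 to 0.904 and 0.887 to 0.9994 (brighter, likewise) and 0.460 to 0.963 (rorab by night).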
